A study of Chionodraco hamatus and Gymnodraco acuticeps and Trematomus bernacchii with 9 samples.

Results

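The head kidney of Trematomus bernacchii was compared with that of an icefish and a dragonfish as one pair of species. All 9 libraries of the series were used, and T. bernacchii was set against the log-scale mean of the other species and against each of them. The rows described are those in which T. bernacchii differed from both in the same direction. Of 8662 rows tested, out of 12653 in the deposited table, 1044 met this rule, of which 516 were higher and 528 were lower in T. bernacchii. A row is a UniProt protein entry, named by a protein mnemonic and an organism code, so that NFE2_BOVIN is the row of the NFE2 protein of cattle. The organism code is that of the entry and not of the fish.

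The series compared the blood-forming tissue of 3 notothenioid fishes, with 3 bulk RNA libraries of each species. Chionodraco hamatus is an icefish, whose family lacks hemoglobin, Gymnodraco acuticeps is a red-blooded dragonfish, and T. bernacchii is a red-blooded member of the Nototheniidae. No treatment, age, sex or genotype was labelled, and all 9 libraries were labelled as head kidney. Nothing in the labels tells whether each library is its own animal. The p-values therefore cover no more than the spread among these libraries, which may be technical.

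The head kidney is the main site of blood formation in bony fish. It holds red cell, white cell and thrombocyte precursors within a stroma, together with steroid-producing interrenal cells and catecholamine-producing chromaffin cells. Notothenioids are perch-like fishes of cold Antarctic waters; the icefishes and dragonfishes are more closely related to each other than either is to the Nototheniidae. In bulk tissue, fewer cells of a type and less RNA per cell cannot be told apart.

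Total counts per library ran from 2501922 to 12055675, and the T. bernacchii libraries held 3867403, 2600100 and 11861252. Across the rows tested, the Spearman correlation of log2 CPM, counts scaled to a common library size, ran from 0.827 to 0.933 within T. bernacchii, from 0.413 to 0.574 between it and C. hamatus and from 0.526 to 0.610 between it and G. acuticeps. Between C. hamatus and G. acuticeps it ran from 0.422 to 0.544, which overlaps both other ranges. The correlations are across rows and are given as a description. T. bernacchii replicate 2 stood apart from the other T. bernacchii libraries, and 2 C. hamatus libraries differed from the first in adrenal transcripts. The tested interrenal markers, 3 of 7 rows, summed to 7990 CPM in C. hamatus replicate 3 and to between 14.4 and 69.9 CPM in the other 8 libraries. With the untested rows included, the highest C. hamatus sum was 24230 CPM. Tested chromaffin and nerve markers summed to 8690 and 4197 CPM in C. hamatus replicates 2 and 3 and to between 56.8 and 585.9 CPM elsewhere. Tested neutrophil markers summed to 12250 CPM in T. bernacchii replicate 2 and 12690 CPM in C. hamatus replicate 2, and to between 1254 and 2531 CPM in the other 7 libraries. Tested skeletal muscle markers summed to 23550, 32760 and 37430 CPM in G. acuticeps, from 792.3 to 1674 CPM in C. hamatus and from 923.5 to 4629 CPM in T. bernacchii. Counts of same-way rows are also given without T. bernacchii replicate 2 and without C. hamatus replicates 2 and 3. Such a sum is weighted to its most abundant rows. Of 24 tested muscle rows, 4 were lower and 1 was higher in T. bernacchii than in G. acuticeps at the threshold given below. Over all rows tested these shares were 13.1% and 18.3%. Against C. hamatus 12 of the 24 were higher and 3 were lower, beside 14.8% and 17.6% of all rows tested. The muscle list median against the mean of the other species was 1.47 on the log2 scale, beside 0.12 over all rows. The part of muscle RNA in the G. acuticeps values was not tested.

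T. bernacchii differed from the mean of the other species in 2568 rows, 29.6% of those tested, at a Benjamini-Hochberg adjusted p below 0.05 in edgeR's quasi-likelihood fit. Of these, 1576 rows (18.2%) were higher and 992 rows (11.5%) were lower. Against C. hamatus alone 1283 rows (14.8%) were higher and 1527 (17.6%) lower, and against G. acuticeps alone 1583 (18.3%) were higher and 1138 (13.1%) lower. Rows that differed the same way from both made up 12.1% of the rows tested, with 5.96% higher and 6.1% lower. A further 196 rows (2.26%) were called in both pairs in opposite directions, with T. bernacchii between the other species. The pairs share the T. bernacchii libraries, so these counts are a description.

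The same count with another species set apart gave 1559 rows for C. hamatus (18%) and 1504 rows for G. acuticeps (17.4%). The C. hamatus rows comprised 877 higher (10.1%) and 682 lower (7.87%), and the G. acuticeps rows 512 higher (5.91%) and 992 lower (11.5%). These counts rest on the same libraries and their difference was not tested.

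**Figure D1:**
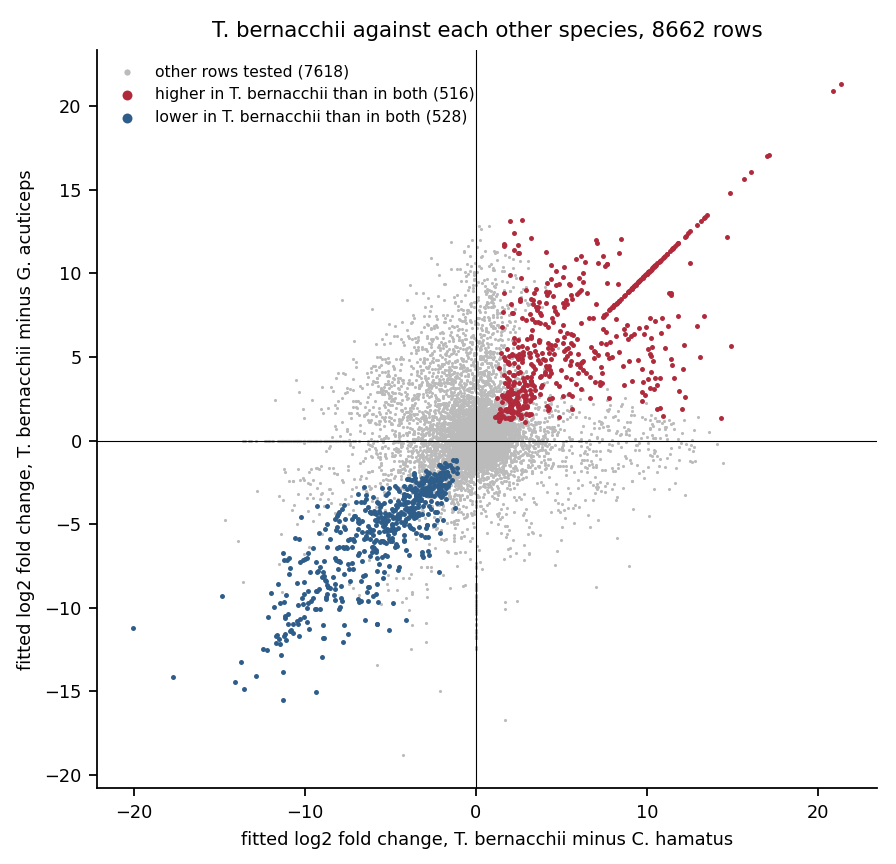
Fitted log2 fold change of T. bernacchii against C. hamatus (horizontal) and against G. acuticeps (vertical) for each row tested. Red points are the 516 rows higher in T. bernacchii than in both species, blue points the 528 rows lower than in both, and grey points all other rows. The diagonal line of red points holds rows with no count in either other species, whose fitted values depend on the prior count and are not measured folds.

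The median fitted log2 fold change against the mean was 5.67 in the 516 higher rows and -5.08 in the 528 lower rows, beside 0.12 over all rows tested. The direction of these medians follows from the rule. Many of the rows were empty in a whole species. Of the higher rows, 198 (38.4%) had no count in all 3 libraries of one or the other species, and 96 had none in both. Of the lower rows, 123 (23.3%) had no count in T. bernacchii. Over all rows tested, 11.9% were empty in a whole species. An empty row is no proof of a silent gene, since reads of that protein may sit on the entry of another organism.

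At least 5 counts in every library were found in 159 of the higher rows (30.8%) and 162 of the lower rows (30.7%), against 57.3% of all rows tested. Their median log2 fold changes against the mean were 2.55 and -2.83, smaller by construction, since this minimum leaves out rows near 0 on one side. Most same-way rows were not called between the other species: 352 of the 516 higher rows (68.2%) and 419 of the 528 lower rows (79.4%) missed that call, beside 58% of all rows tested. These shares rest on the same fitted values as the rule and are a description. Of the higher rows, 96 had no count in either other species and could not be called between them. A missed call does not show that these species had equal levels.

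In 162 lower rows with counts everywhere, T. bernacchii replicate 2 kept more of the signal than its companions. The median level was 9.73%, 22% and 8.78% of the mean of the other species in replicates 1, 2 and 3. Without replicate 2, 724 rows were lower and 566 higher, and these included 475 of the 528 and 470 of the 516. Without C. hamatus replicates 2 and 3, 401 rows were lower and 452 higher, including 377 and 345 of the same rows. That fit holds 1 C. hamatus library, which is assumed to vary like the other species' libraries. What sets T. bernacchii replicate 2 apart was not tested.

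Genes with the widest separation were named among rows with at least 10 counts summed over the 3 libraries of every species, so that some were still nearly empty in T. bernacchii. Named rows were chosen among called rows by the size of their change or level, so groups that do not overlap largely follow from the choice. Of 112 named rows, the groups of 1 overlapped. I2B2B_DANRE, interferon regulatory factor 2-binding protein 2-B, a transcriptional corepressor, was at 3770, 3510 and 4980 CPM in T. bernacchii. In C. hamatus it was at 32.7, 48.1 and 21 CPM, and in G. acuticeps at 94.6, 103 and 96.4 CPM. The groups were wide apart and the T. bernacchii libraries were close to each other, with a log2 fold change of 6.15 ± 0.39 (SE, 3 libraries per species) against the mean. The edgeR adjusted p was 0.00011 in the weaker pair, the species comparison with the larger p. Summed with the row of its paralog I2B2A_DANRE, it was still higher by 4.22 log2 units over C. hamatus and by 4.81 over G. acuticeps.

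SORL_HUMAN, the sorting receptor sortilin-related receptor, was at 198, 196 and 245 CPM in T. bernacchii and at no more than 13.9 CPM in any other library. MTMRE_HUMAN, a myotubularin-related phosphoinositide phosphatase, was at 330, 84.1 and 226 CPM in T. bernacchii, while C. hamatus reached 13.5 CPM and G. acuticeps 0.814 CPM. TIAM1_HUMAN, an exchange factor that activates the GTPase Rac, was at 77, 36.3 and 96.3 CPM and at no more than 3.38 CPM elsewhere. None of these groups overlapped, which largely follows from how the rows were picked. Their log2 fold changes against the mean were 5.88 ± 0.77, 6.84 ± 0.74 and 6.01 ± 0.61. With TIAM2_HUMAN added, the TIAM1_HUMAN difference fell from 5.08 to 1.87 log2 units over C. hamatus and from 6.93 to 2.11 over G. acuticeps. It was still called.

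ACOT5_MOUSE, an acyl-CoA thioesterase, was at 98.7, 51.8 and 146 CPM in T. bernacchii and at no more than 2.51 CPM elsewhere. PAQRB_RAT, a membrane protein of the progestin and adipoQ receptor family, was at 77, 31.3 and 85.8 CPM against no more than 1.59 CPM. CNEPA_DANRE, a nuclear envelope phosphatase, was at 75, 18.2 and 83.4 CPM against no more than 2.71 CPM. RASF6_HUMAN, a Ras association domain protein, was the least variable of these in T. bernacchii, at 55.1, 43.7 and 40.7 CPM. Its highest value elsewhere was 2.78 CPM. These 4 rows had log2 fold changes between 5.06 ± 0.57 and 6.17 ± 0.52 against the mean.

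Among rows lower in T. bernacchii, RL5A_XENLA, a ribosomal protein L5 entry, was at 2.49, 1.01 and 0 CPM in T. bernacchii. It was at 8890, 3340 and 2800 CPM in C. hamatus and at 4480, 7070 and 7710 CPM in G. acuticeps. The log2 fold change of the row alone was -12.38 ± 1.39 against the mean. With the row RL5_CHICK added, T. bernacchii had 492, 220 and 575 CPM. The log2 difference then shrank from -12.2 to -3.54 against C. hamatus and from -12.56 to -4.01 against G. acuticeps. The summed level was still lower in every T. bernacchii library, at an edgeR adjusted p of 0.00243 in the weaker pair.

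GTR3_CHICK, the glucose transporter GLUT3, was at 0, 0 and 1.07 CPM in T. bernacchii, at 169, 1080 and 2080 CPM in C. hamatus and at 96.5, 60 and 65.3 CPM in G. acuticeps. Its highest values were in the C. hamatus libraries with adrenal transcripts. Added to the rows of GLUT1 and GLUT4, it was lower by -6.65 log2 units against C. hamatus and by -3.42 against G. acuticeps, with an edgeR adjusted p of 0.0211 in the weaker pair. ADPGK_MOUSE, the ADP-dependent glucokinase of glycolysis, was at 0, 1.35 and 0.679 CPM in T. bernacchii and at 31.4 CPM or more in every other library. Its log2 fold change against the mean was -6.31 ± 0.78.

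ZHX2_PONAB, a zinc finger and homeobox repressor, was at 0.499, 1.35 and 1.65 CPM in T. bernacchii and at 59.2 CPM or more in each other library, a log2 fold change of -6.71 ± 0.56. ZBT26_HUMAN, a zinc finger protein with a BTB domain, was at 0.499, 3.03 and 0.873 CPM in T. bernacchii and at 66.3 CPM or more elsewhere. HMBX1_HUMAN, a homeobox protein that binds telomeres, was at 0, 0 and 1.75 CPM against at least 28 CPM. All 3 rows had groups that did not overlap, which largely follows from how they were picked.

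RBM15_HUMAN, an RNA-binding protein of the m6A writer complex with a known role in mammalian blood cell development, was at 0, 1.68 and 0.485 CPM in T. bernacchii. It was at 47.1, 14.6 and 27.8 CPM in C. hamatus and at 105, 77.9 and 64.6 CPM in G. acuticeps, a log2 fold change of -6.22 ± 0.89 against the mean. PAPD1_MOUSE, the mitochondrial poly(A) polymerase, was at 0, 0.336 and 1.55 CPM against at least 6.09 CPM. DIP2A_HUMAN and UH1BL_XENLA were at no more than 0.679 and 1.46 CPM in T. bernacchii and at 22.7 and 58.5 CPM or more elsewhere.

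ENSA_SALSA, alpha-endosulfine, an inhibitor of protein phosphatase 2A in mitosis, was at 2.24, 8.41 and 0.873 CPM in T. bernacchii. It was at 178, 116 and 252 CPM in C. hamatus and at 770, 573 and 512 CPM in G. acuticeps. Its log2 fold change against the mean was -6.53 ± 0.82 alone, but -1.93 once the rows of the related ARPP19 were added. By pair, it went from -5.64 to -1.15 against C. hamatus and from -7.41 to -2.71 against G. acuticeps. The edgeR adjusted p in the weaker pair of that sum was 0.0482, just inside the threshold.

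**Figure D2:**
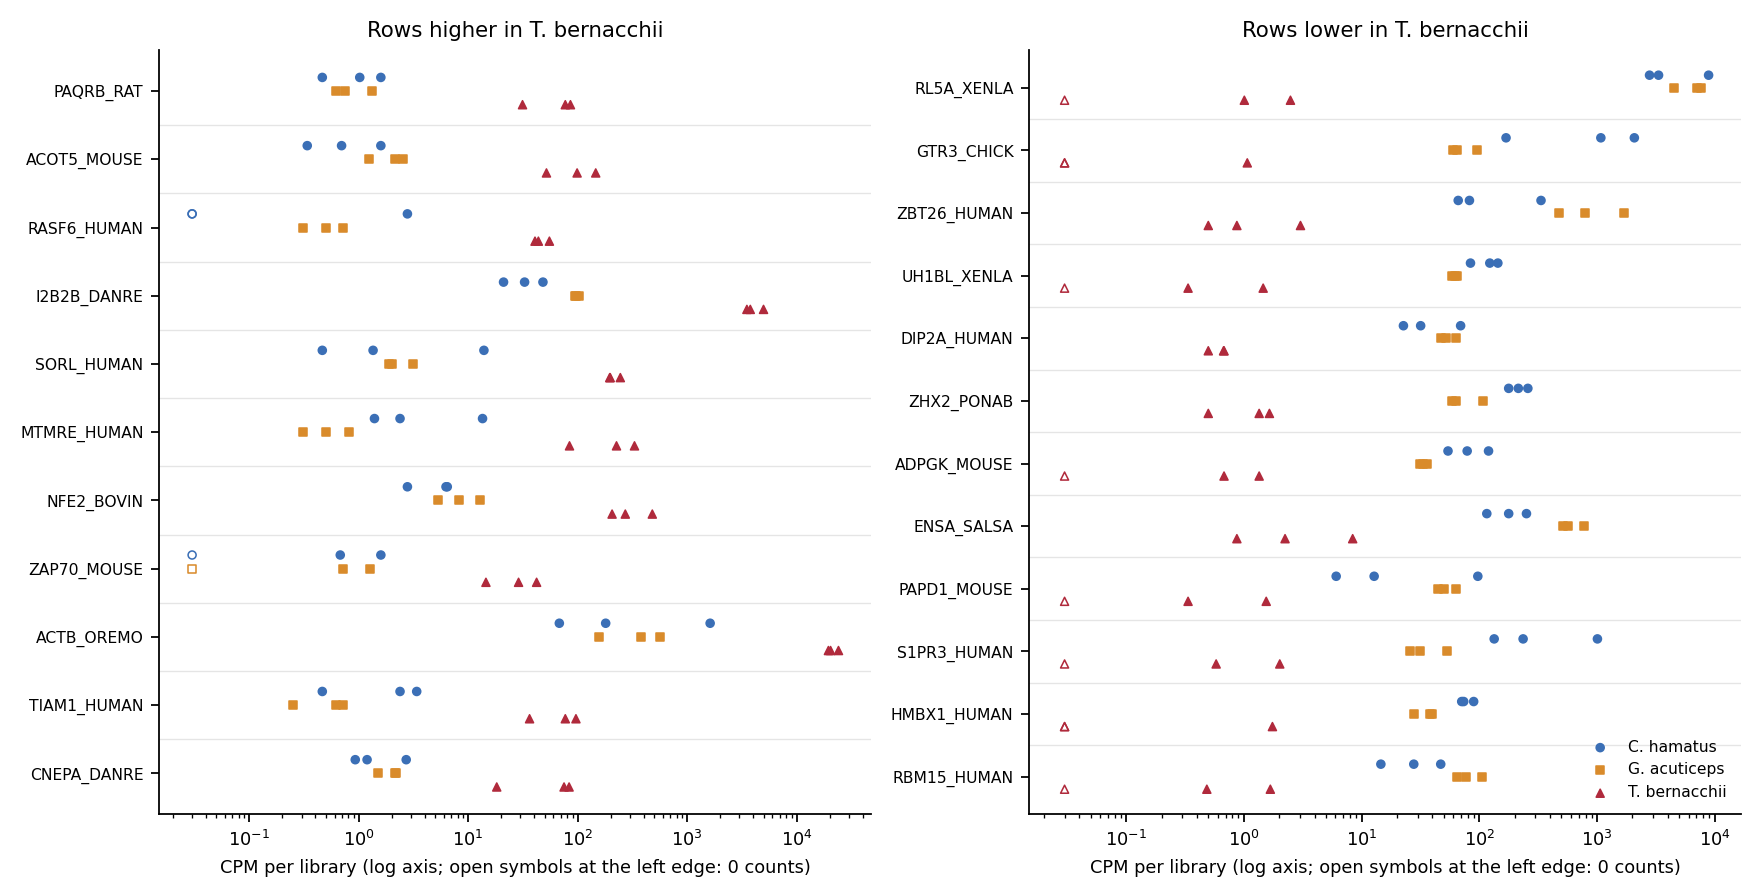
CPM in each library on a log axis for rows named as highest (left) and lowest (right) in T. bernacchii. Circles are C. hamatus, squares G. acuticeps and triangles T. bernacchii, with 3 libraries each, and open symbols at the left edge mark 0 counts. In every row shown the T. bernacchii libraries lie apart from the other 6, which largely follows from how the rows were picked.

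Some of the named rows changed their call once rows of close relatives, chosen by name after the values were seen, were summed. Relatives were found for 40 named rows, and 22 of them were still called the same way after summing. ACTB_OREMO, cytoplasmic beta-actin, was at 20400, 24100 and 19500 CPM in T. bernacchii, against 180, 1620 and 67.9 CPM in C. hamatus and 157, 567 and 380 CPM in G. acuticeps. The sum of 6 actin rows was 20500, 24300 and 19600 CPM in T. bernacchii and 19400, 31800 and 30800 CPM in G. acuticeps, at a log2 fold change of -0.34 and an edgeR adjusted p of 0.757. In C. hamatus that sum was 500, 1960 and 215 CPM. The rows added include the muscle actins ACTS_ORYLA, ACTS_RAT, ACTC_PISOC and ACTC_XENTR. The skeletal muscle marker sum was also highest in G. acuticeps, but its list includes ACTS too, so it is not independent of the actin sum. The part of muscle in the actin sum was not tested.

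Other sums moved in the same manner. TADBP_HUMAN, the RNA-binding protein TDP-43, was at 8.23, 51.5 and 9.32 CPM in T. bernacchii and at 159 CPM or more elsewhere. With TADBP_CHICK added, T. bernacchii had 291, 140 and 315 CPM and the call was lost at an edgeR adjusted p of 0.209. WEE1_HUMAN, a kinase that holds back mitosis, lost its call when the related WEE2_DANRE was added, at an edgeR adjusted p of 0.998. S1PR3_HUMAN, a sphingosine 1-phosphate receptor, lost its call against G. acuticeps when the rows of related receptors were added, at an edgeR adjusted p of 0.866. KPYM_RAT, pyruvate kinase M, was at 1340, 602 and 1360 CPM in T. bernacchii as a single row. Its sum with other pyruvate kinase rows was not called against C. hamatus (edgeR adjusted p of 0.199). That sum was still called against G. acuticeps (edgeR adjusted p of 0.0277).

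Tubulin kept its call. TBA1C_HUMAN, an alpha-tubulin row, was at 2.24, 6.39 and 4.08 CPM in T. bernacchii. The sum of 7 alpha-tubulin rows was 425, 329 and 733 CPM in T. bernacchii, 2800, 1330 and 1130 CPM in C. hamatus and 4460, 6020 and 4810 CPM in G. acuticeps. The sum was lower by -1.82 log2 units against C. hamatus and by -3.36 against G. acuticeps, at an edgeR adjusted p of 0.0209 in the weaker pair. How reads were shared between rows of related proteins was not tested.

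**Figure D3:**
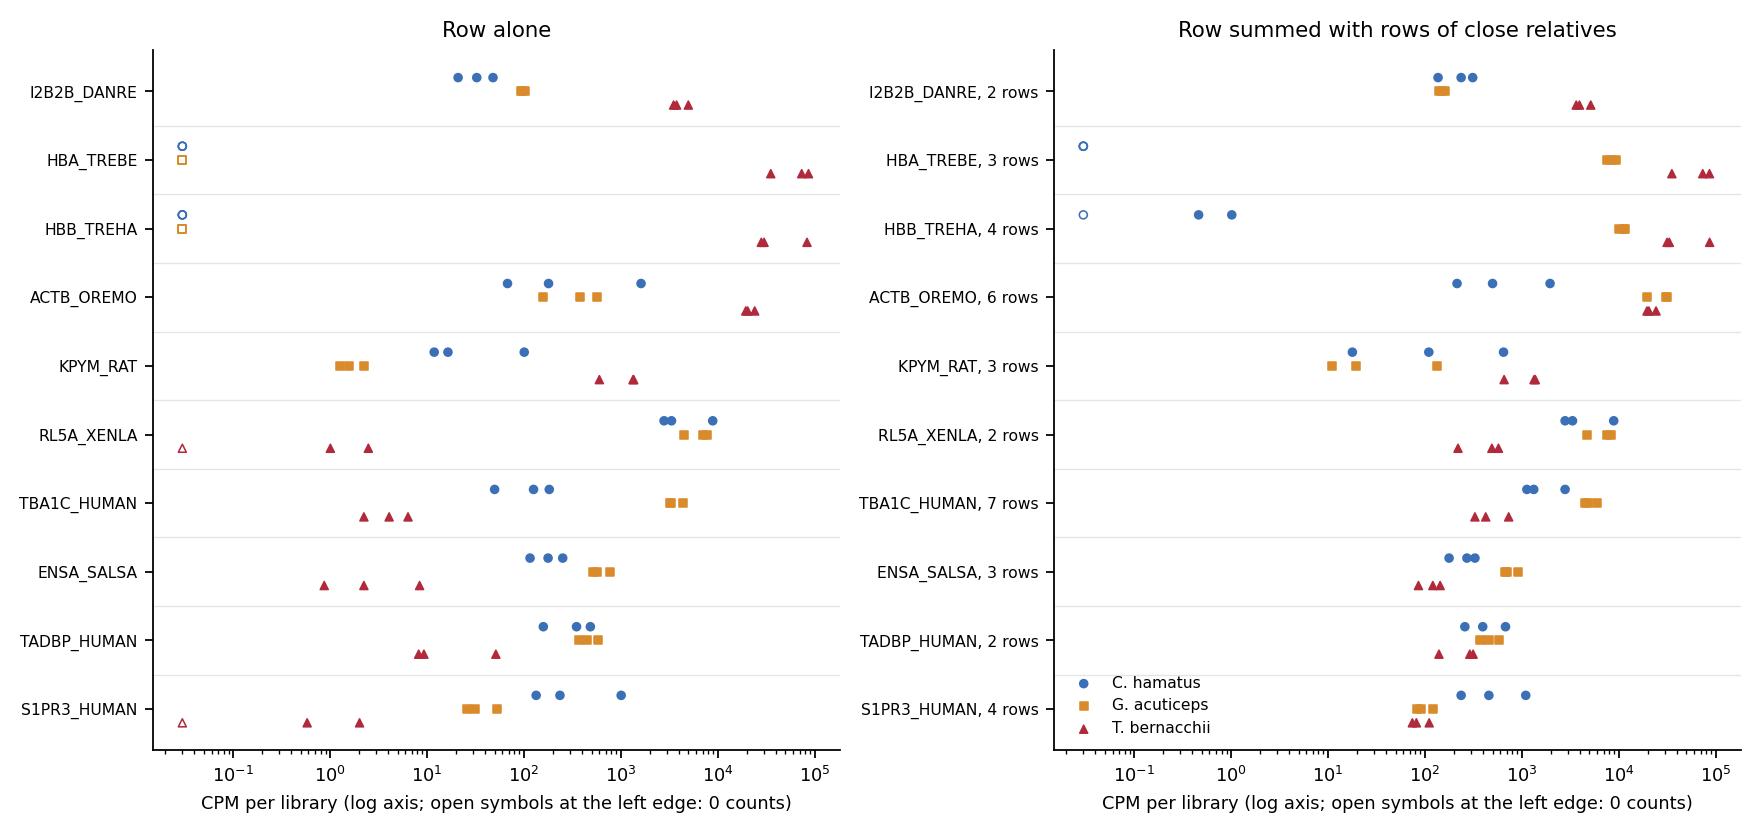
CPM in each library on a log axis for 10 named rows alone (left) and summed with rows of close relatives (right). The number of rows summed stands beside each name, and open symbols at the left edge mark 0 counts. The T. bernacchii actin libraries separate from G. acuticeps alone but not in the sum, while the globin, I2B2B_DANRE, RL5A_XENLA and TBA1C_HUMAN sums still separate.

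Red cell genes were the next group. Counts of list rows here and below stand beside 5.96% higher and 6.1% lower over all rows tested. Of 6 tested globin rows 3 were higher in T. bernacchii than in both species and 0 were lower. HBA_TREBE, an alpha-globin entry of T. bernacchii itself, was at 73600, 35300 and 86500 CPM in T. bernacchii and at 0 in all 6 other libraries, at least 84700-fold higher than in C. hamatus and at least 98100-fold higher than in G. acuticeps against a floor of 3 counts per library. HBB_TREHA, a beta-globin entry of a related fish, was at 30100, 28200 and 83500 CPM and HBB2_GOBGI at 3110, 3420 and 3220 CPM in T. bernacchii, and both were at 0 elsewhere. The HBB2_GOBGI call was lost when rows of its mnemonic were summed, a sum that was lower than in G. acuticeps by -1.76 log2 units (edgeR adjusted p of 0.0437). In G. acuticeps globin reads were counted on other rows, such as HBA2_GOBGI at 7480, 8280 and 9340 CPM.

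Summed by chain, globin was higher in T. bernacchii than in the red-blooded dragonfish as well. The alpha-globin rows together held 73700, 35400 and 86500 CPM in T. bernacchii and 7620, 8370 and 9430 CPM in G. acuticeps, a log2 fold change of 2.94 with an edgeR adjusted p of 0.007. The beta-globin rows together held 33300, 31600 and 86800 CPM in T. bernacchii and 11300, 10200 and 11700 CPM in G. acuticeps, a log2 fold change of 2.19 with an edgeR adjusted p of 0.0383. All globin rows took 11.1%, 7.65% and 15.1% of the counts in T. bernacchii, 1.99%, 1.72% and 1.72% in G. acuticeps, and 3, 3 and 0 counts in C. hamatus.

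Erythroid regulators held 2 higher rows (15.4%) and 0 lower rows of 13 tested, beside 5.96% and 6.1% of all rows tested. Their median log2 fold change against the mean was 0.42, beside 0.12 over all rows tested. NFE2_BOVIN, a transcription factor of globin genes and of platelet formation in mammals, was at 272, 206 and 480 CPM in T. bernacchii, 6.26, 6.43 and 2.78 CPM in C. hamatus and 5.29, 8.29 and 12.7 CPM in G. acuticeps. It rose by a log2 fold change of 5.56 ± 0.45 against the mean. KLF1_HUMAN, the erythroid activator of the beta-globin gene in mammals, was at 169, 151 and 41.6 CPM in T. bernacchii, at no more than 1.19 CPM in C. hamatus and at 13.7, 8.04 and 10.3 CPM in G. acuticeps. It was higher by 3.49 ± 0.61 log2 units than in G. acuticeps (edgeR adjusted p of 0.00187).

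Other erythroid regulators lay between the species and so were not same-way rows. TAL1_TAKRU, a master regulator of blood stem and red cells, was at 83.5, 40.7 and 67.6 CPM in T. bernacchii, 747, 363 and 185 CPM in G. acuticeps and at no more than 0.928 CPM in C. hamatus. It was higher than in C. hamatus (edgeR adjusted p of 0.000361) and lower than in G. acuticeps by -2.75 ± 0.65 log2 units (0.00932). E2AK1_MACFA, the heme-regulated kinase of translation, was likewise higher than in C. hamatus by 2.91 ± 0.87 and lower than in G. acuticeps by -4.74 ± 0.89 log2 units. Its call against C. hamatus was lost without C. hamatus replicate 1 or T. bernacchii replicate 2, and when each pair was fitted on its own libraries.

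Of 16 tested heme synthesis rows 8 were higher than in C. hamatus, beside 14.8% of all rows, and 9 were lower than in G. acuticeps, beside 13.1%. Both calls were made for 5 of the 16, beside 2.26% of all rows tested called in opposite ways, in either order. Of the 16, 1 row (6.25%) was higher and 2 (12.5%) were lower than in both species. HEM0_OPSTA, the erythroid enzyme that starts heme synthesis, was at 742, 1240 and 640 CPM in T. bernacchii, 12.3, 7.45 and 9.53 CPM in C. hamatus and 2920, 2460 and 2750 CPM in G. acuticeps, with no overlap between species. Its call against G. acuticeps was lost without T. bernacchii replicate 1, at an edgeR adjusted p of 0.0659. HEM4_HUMAN, uroporphyrinogen-III synthase, was at 198, 66 and 132 CPM in T. bernacchii and at 0 in both other species, at least 172-fold higher than in C. hamatus and at least 199-fold higher than in G. acuticeps.

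The lower heme rows were a transporter and a protease subunit. FLVC2_HUMAN, a membrane transporter of the FLVCR family, was at 0, 0 and 0.194 CPM in T. bernacchii and at 3.38 CPM or more in every other library. Its depth-scaled count ratio was 78.7-fold lower than in C. hamatus (exact 95% interval 21.3 to 658) and 84.8-fold lower than in G. acuticeps (23.1 to 706). CLPX_HUMAN, a mitochondrial unfoldase that acts on the first enzyme of heme synthesis in other organisms, was at 19.4, 60.6 and 18.5 CPM in T. bernacchii and at 76.5 CPM or more elsewhere. It fell by a log2 change of -2.27 ± 0.60 (edgeR adjusted p of 0.0225 in the weaker pair), and the call was lost without C. hamatus replicate 3 or without T. bernacchii replicate 1 or 3.

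Iron handling held 2 higher and 2 lower rows (15.4% each) of 13 tested, beside 5.96% and 6.1% of all rows tested. HEPC_MORCS, hepcidin, the peptide that blocks iron export and acts as an antimicrobial in fish, was at 0, 0 and 0.097 CPM in T. bernacchii, 5.57, 90.4 and 55.6 CPM in C. hamatus and 987, 2990 and 3980 CPM in G. acuticeps. With 1 count in all of T. bernacchii, its depth-scaled ratio was 802-fold lower than in C. hamatus (exact 95% interval 143 to 31700). STEA3_MOUSE, the ferrireductase of erythroid iron uptake in mammals, was at 0.499, 11.1 and 1.36 CPM in T. bernacchii and at 43.3 CPM or more elsewhere, a log2 fold change of -5.33 ± 0.99.

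TRFE_ORYLA, transferrin, the iron carrier of plasma, was at 34.9, 75.4 and 18.5 CPM in T. bernacchii and at no more than 0.916 CPM elsewhere. HMOX2_RAT, a heme-degrading oxygenase, was at 38.4, 44.1 and 47.4 CPM in T. bernacchii and at no more than 9.48 CPM elsewhere. Its call against G. acuticeps was lost when HMOX_TAKRU was added (edgeR adjusted p of 0.0696). Red cell membrane and enzyme rows held 1 higher (6.25%) and 2 lower (12.5%) of 16 tested. The lower count dropped to 0 when replicate 1 of either red-blooded species, or C. hamatus replicates 2 and 3 together, were left out. It was 1 without G. acuticeps replicate 2 or 3 or the third T. bernacchii library, and 4 without T. bernacchii replicate 2. ADDB_MOUSE, beta-adducin of the red cell skeleton, was at 44.9, 25.6 and 13.2 CPM in T. bernacchii and at no more than 0.712 CPM elsewhere. ADDA_HUMAN, alpha-adducin, was at 9.47, 93.5 and 11.9 CPM in T. bernacchii against at least 156 CPM. The sum of the adducin rows was not called against G. acuticeps (edgeR adjusted p of 0.325).

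**Figure D4:**
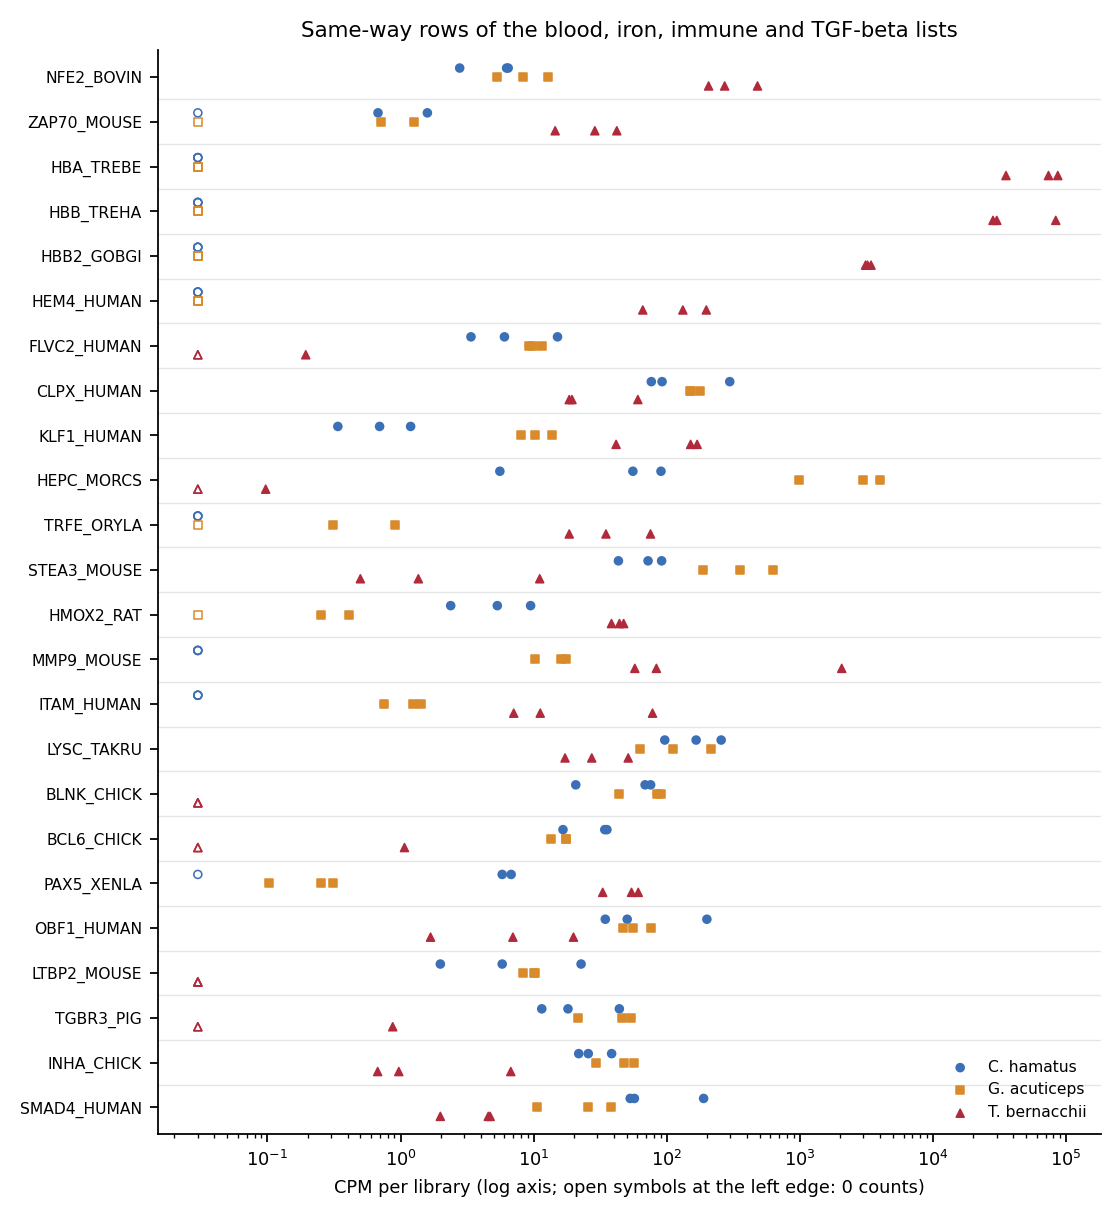
CPM in each library on a log axis for same-way rows of the globin, erythroid, heme, iron, neutrophil, B cell, T cell and TGF-beta lists. Circles are C. hamatus, squares G. acuticeps and triangles T. bernacchii, with 3 libraries each, and open symbols at the left edge mark 0 counts. In every row shown the T. bernacchii libraries lie above or below all 6 other libraries, which largely follows from how the rows were picked.

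Among white cells, neutrophil and granulocyte markers held 3 higher (18.8%) and 1 lower (6.25%) row of 16 tested, beside 5.96% and 6.1% of all rows. Their median log2 fold change against the mean was 1.28, beside 0.12 over all rows tested. Against C. hamatus 4 rows were higher and 5 lower, beside 14.8% and 17.6% of all rows tested. Against G. acuticeps 10 rows were higher and 1 was lower, beside 18.3% and 13.1%. MMP9_MOUSE, a gelatinase of granulocytes, was at 83.5, 2060 and 57.5 CPM in T. bernacchii, at 0 in C. hamatus and at 10.3, 17.6 and 16 CPM in G. acuticeps. ITAM_HUMAN, an integrin chain of myeloid cells, was at 11.2, 78.1 and 7.08 CPM in T. bernacchii, at 0 in C. hamatus and at 1.25, 0.754 and 1.42 CPM in G. acuticeps. Both were highest in T. bernacchii replicate 2, where the neutrophil sum was also high, and both were at 0 in C. hamatus replicate 2, where that sum was as high. Without T. bernacchii replicate 2, the log2 fold change of MMP9_MOUSE against the mean was 6.93 in place of 10.27, and the weaker pair had an edgeR adjusted p of 0.015. That of ITAM_HUMAN was 5.8 in place of 7.57, at an edgeR adjusted p of 0.0437. With C. hamatus at 0 in both rows, these fitted values depend on the prior count and are not measured folds. With all libraries, the sum of ITAM_HUMAN and ITAM_MOUSE was not called against C. hamatus (edgeR adjusted p of 0.392). The MMP9_MOUSE and ITAM_HUMAN calls were both lost without any 1 of the G. acuticeps libraries, and the list then held 0 higher rows.

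LYSC_TAKRU, lysozyme C, was lower in T. bernacchii at 17.2, 27.3 and 51.3 CPM against at least 62.7 CPM, a log2 fold change of -2.22 ± 0.56. Its call was lost without T. bernacchii replicate 2, at an edgeR adjusted p of 0.0755, and without T. bernacchii or G. acuticeps replicate 1. Of 14 macrophage markers and 11 antigen presentation rows tested, 0 were called the same way by edgeR, while DESeq2's test called 1 higher and 1 lower macrophage row and 1 higher antigen presentation row. One MHC class I-related row outside the lists, HMR1_RAT, was at 6600, 2160 and 1530 CPM in T. bernacchii and at 0 in both other species.

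B cell markers held 1 higher (5.88%) and 4 lower (23.5%) rows of 17 tested, beside 5.96% and 6.1% of all rows tested. The lower count was 2 when replicate 1 of any species or the second G. acuticeps library was left out. BLNK_CHICK, the adaptor of B cell receptor signalling, was at 0 in T. bernacchii, at 75.6, 68.7 and 20.7 CPM in C. hamatus and at 84.4, 91 and 43.9 CPM in G. acuticeps, at least 80.5-fold lower than in C. hamatus and at least 107-fold lower than in G. acuticeps. BCL6_CHICK, a repressor of the germinal centre programme in mammals, was at 0, 0 and 1.07 CPM in T. bernacchii against at least 13.4 CPM. OBF1_HUMAN, a B cell coactivator, was at 6.98, 1.68 and 19.9 CPM against at least 34.5 CPM, and its call was lost when any 1 of 6 libraries was left out. PLCG2_HUMAN, a phospholipase of B cell receptor signalling, was at 51.4, 113 and 48.5 CPM against at least 124 CPM. Its call was lost without T. bernacchii replicate 1 or 3, C. hamatus replicate 1 or 2, or G. acuticeps replicate 1 or 2. It was also lost when each pair was fitted on its own libraries. PAX5_XENLA, the transcription factor that fixes B cell identity, went the other way at 54.3, 33 and 61 CPM in T. bernacchii against no more than 6.77 CPM, a call lost without T. bernacchii replicate 1 or 3.

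The median of the B cell list against the mean was 0.36 on the log2 scale, beside 0.12 over all rows tested. IGHM_RABIT, an immunoglobulin heavy chain row, was at 137, 11.8 and 104 CPM in T. bernacchii and overlapped the other species, which were at 157, 96.8 and 75.1 CPM in C. hamatus and 52.6, 64.1 and 44.6 CPM in G. acuticeps. LAC6_HUMAN, an immunoglobulin lambda constant row outside the lists, was at 0 in T. bernacchii, at 11200, 1620 and 2940 CPM in C. hamatus and at 290, 481 and 558 CPM in G. acuticeps. Whether light chain reads of T. bernacchii were counted on other rows was not tested.

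T and NK cell markers held 2 higher (18.2%) and 0 lower of 11 tested, beside 5.96% and 6.1% of all rows tested. The higher count was 1 when any G. acuticeps library or T. bernacchii replicate 1 or 3 was left out, and 3 without C. hamatus replicate 1 or 3 or T. bernacchii replicate 2. ZAP70_MOUSE, the kinase of T cell receptor signalling, was at 42.1, 14.5 and 28.8 CPM in T. bernacchii and at no more than 1.59 CPM elsewhere, a log2 fold change of 5.25 ± 0.90.

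Thrombocyte markers held 2 higher (13.3%) and 0 lower of 15 tested, beside 5.96% and 6.1% of all rows tested. CD9_BOVIN, a tetraspanin, was at 60.8, 130 and 72.9 CPM in T. bernacchii and at no more than 0.712 CPM elsewhere. Summed with CD9_RAT, it was still higher than in C. hamatus, where the sum was at 0, but not called against G. acuticeps (edgeR adjusted p of 0.817). THAS_PIG, thromboxane synthase, was at 8.23, 4.71 and 7.67 CPM in T. bernacchii and at 0 elsewhere, a call kept when any 1 library was left out and lost (edgeR adjusted p of 0.0545) with C. hamatus reduced to 1 library. Stem and progenitor markers held 0 higher and 1 lower (10%) of 10 tested. MEIS1_XENLA, a homeobox factor of blood stem cells in mammals, was at 0, 2.02 and 0.679 CPM in T. bernacchii and at 12.5 CPM or more elsewhere, a log2 fold change of -5.1 ± 0.86.

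Interferon and innate sensing rows held 2 higher and 2 lower (6.67% each) of 30 tested, near the 5.96% and 6.1% of all rows tested. The lower count was 4 when T. bernacchii replicate 3 was left out. IFIT2_MOUSE, an interferon-induced antiviral protein, was at 365, 386 and 216 CPM in T. bernacchii and at no more than 80.5 CPM elsewhere. IRF2_HUMAN, an antagonist of interferon-driven transcription, and NLRC3_MOUSE, a sensor that dampens innate signalling, were at 0 in T. bernacchii and at 2.14 and 4.52 CPM or more elsewhere. The NLRC3_MOUSE call was lost when rows of its mnemonic were summed. That sum was at -0.71 log2 units against C. hamatus (edgeR adjusted p of 0.287) and at 0.95 against G. acuticeps (edgeR adjusted p of 0.162). Complement rows were split, with CFAB_HUMAN, factor B, higher by 2.55 ± 0.35 and CO3_NAJNA, component C3, lower by -5.24 ± 0.71 log2 units among 10 tested. The CFAB_HUMAN call was lost without T. bernacchii replicate 3.

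TGF-beta and BMP signalling held 1 higher (2.7%) and 5 lower (13.5%) rows of 37 tested, beside 5.96% and 6.1% of all rows. Its median log2 fold change against the mean was -0.54, beside 0.12 over all rows tested. Against C. hamatus 2 rows were higher and 14 lower, beside 14.8% and 17.6% of all rows tested. Against G. acuticeps 9 rows were higher and 7 lower, beside 18.3% and 13.1%. SMAD4_HUMAN, the SMAD shared by both pathways, was at 1.99, 4.71 and 4.56 CPM in T. bernacchii, 57.1, 53.1 and 189 CPM in C. hamatus and 38, 25.6 and 10.5 CPM in G. acuticeps. It fell by a log2 change of -3.71 ± 0.69 against the mean, and the call was lost without G. acuticeps replicate 1 or T. bernacchii replicate 1. TGBR3_PIG, betaglycan, a co-receptor, was at 0, 0 and 0.873 CPM in T. bernacchii against at least 11.5 CPM. INHA_CHICK, the inhibin alpha chain, was at 6.73, 0.673 and 0.97 CPM against at least 21.8 CPM, and LTBP2_MOUSE, a matrix protein of the latent TGF-beta binding family, was at 0 against at least 1.99 CPM.

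The remaining lower and higher TGF-beta rows were a receptor and a coactivator. ACVR1_CHICK, a type I receptor for BMPs, was at 3.74, 2.69 and 3.98 CPM in T. bernacchii, 8.58, 10.5 and 15.1 CPM in C. hamatus and 15.6, 11.6 and 11.4 CPM in G. acuticeps. Its call against C. hamatus (edgeR adjusted p of 0.0444) was lost when any library but C. hamatus replicate 1 was left out. That call was also lost when each pair was fitted on its own libraries. CBP_HUMAN, a histone acetyltransferase used by many pathways, was higher at 68.8, 41.4 and 108 CPM against at most 31.1 CPM. Its sum with CBP_RAT was not called against G. acuticeps (edgeR adjusted p of 0.164). Without T. bernacchii replicate 2 the list held 1 higher and 6 lower rows, and without C. hamatus replicates 2 and 3 it held 0 higher and 4 lower. It held 3 lower rows when replicate 1 of either red-blooded species was left out.

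Stroma and vessel markers held 0 higher and 4 lower (11.8%) rows of 34 tested, beside 5.96% and 6.1% of all rows tested. The lower count was 1 when replicate 1 of either red-blooded species was left out, 2 without the second G. acuticeps library and 7 without T. bernacchii replicate 2. Over the list, the median against the mean was -1.11 on the log2 scale, beside 0.12 over all rows tested. Against C. hamatus 1 row was higher and 19 were lower, and against G. acuticeps 3 were higher and 5 lower. Of all rows tested, 17.6% were lower than in C. hamatus and 13.1% lower than in G. acuticeps. CO6A1_MOUSE, a collagen VI chain, was at 0 in T. bernacchii, at 906, 564 and 633 CPM in C. hamatus and at 9.65, 14.6 and 21.5 CPM in G. acuticeps. SPRC_COTJA, osteonectin, was at 31.2, 78.1 and 27.9 CPM in T. bernacchii against at least 109 CPM, with an edgeR adjusted p of 0.0441 in the weaker pair. CO4A1_HUMAN, a basement membrane collagen, was at 0, 3.7 and 0 CPM against at least 17.1 CPM, and LUM_CHICK, lumican, was at 0, 2.36 and 0.194 CPM against at least 3.46 CPM. The SPRC_COTJA and LUM_CHICK calls were lost without G. acuticeps replicate 1 or 2 or T. bernacchii replicate 1 or 3, and that of CO4A1_HUMAN without G. acuticeps replicate 1 or 3 or T. bernacchii replicate 1. The summed level of the tested stroma markers ran from 2853 to 4048 CPM in T. bernacchii, from 3476 to 4827 CPM in G. acuticeps and from 9377 to 17230 CPM in C. hamatus. T. bernacchii and G. acuticeps overlapped in this sum.

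Cell cycle rows held 2 higher (5.56%) and 1 lower (2.78%) of 36 tested, beside 5.96% and 6.1% of all rows tested. The lower row was CCND1_DANRE, cyclin D1, with an edgeR adjusted p of 0.0388. The lower count was 0 without any 1 of the G. acuticeps libraries or T. bernacchii replicate 2. The CCND1_DANRE call was also lost without T. bernacchii replicate 3, with no filter on low counts and with a replicate block. It was kept under 10 of 19 alternatives. TYSY_MOUSE, thymidylate synthase, was at 114, 35.3 and 60.5 CPM in T. bernacchii and at 0 elsewhere, and NDC80_DANRE, a kinetochore protein, was at 28.2, 24.9 and 44.1 CPM against no more than 1.35 CPM. Heat shock and chaperone rows held 2 higher and 2 lower (5.41% each) of 37, also near these shares. STIP1_MACFA, a co-chaperone that links HSP70 and HSP90, was at 180, 164 and 264 CPM in T. bernacchii and at no more than 44.3 CPM elsewhere, a log2 fold change of 2.73 ± 0.45. DNJC3_HUMAN, a co-chaperone of the endoplasmic reticulum, was at 3.49, 24.2 and 6.6 CPM against at least 84.7 CPM. HSP71_ORYLA, an HSP70 row, was lower by -1.86 ± 0.42 log2 units, but the sum of HSP70 rows was not called (edgeR adjusted p of 0.634). The HSP71_ORYLA call (0.0411 by edgeR) was lost when any library but C. hamatus replicate 3 was left out, and the lower count of the list was then 1. The higher count was 1 without C. hamatus replicate 1, any G. acuticeps library or the first T. bernacchii library.

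Antioxidant rows held 2 higher and 2 lower (6.67% each) of 30, near the 5.96% and 6.1% of all rows tested. The counts were 1 each way without G. acuticeps replicate 2, and the lower count was 1 without T. bernacchii replicate 1. GSH0_BOVIN, the regulatory subunit of glutathione synthesis, was at 51.1, 43.1 and 54 CPM in T. bernacchii, at no more than 1.16 CPM in C. hamatus and at 11.5, 11.8 and 16.3 CPM in G. acuticeps, a call lost without G. acuticeps replicate 2. NQO1_RAT, a quinone reductase, was at 0 in T. bernacchii and at 14.8 CPM or more elsewhere, and its sum with NQO1_CAVPO was still lower in both pairs. The nuclear-encoded respiratory chain held 3 higher (5%) and 0 lower of 60, with QCR7_BOVIN and NDUB6_PONPY at 0 in both other species. Ribosomal proteins held 0 higher and 2 lower (3.12%) of 64, and the proteasome 0 higher and 1 lower (3.23%) of 31.

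Lipid metabolism held 0 higher and 2 lower (6.06%) of 33, beside 5.96% and 6.1% of all rows tested. HMDH_BOVIN, the rate-limiting enzyme of cholesterol synthesis, was at 0.997, 8.41 and 1.65 CPM in T. bernacchii, 8.58, 38.6 and 23.8 CPM in C. hamatus and 489, 360 and 354 CPM in G. acuticeps. Its call was lost without C. hamatus replicate 2 or T. bernacchii replicate 1 or 3. In the circadian list 1 of 11 rows was higher: TEF_CHICK, a clock output factor, was at 565, 173 and 115 CPM in T. bernacchii and at no more than 26.1 CPM elsewhere. Immediate early and stress genes held 2 higher of 32, KLF2_MOUSE and the MAP kinase phosphatase DUS2_MOUSE. The KLF2 sum was not called against C. hamatus (edgeR adjusted p of 0.373).

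The interrenal and chromaffin lists, cell types of the head kidney itself, held 0 called rows of 3 and 11 tested, and kidney tubule markers 0 of 5. Skeletal muscle held 0 higher and 1 lower of 24, a lower count that was 0 without C. hamatus replicate 2 or T. bernacchii replicate 1 or 3 and 2 without T. bernacchii replicate 2. Exocrine pancreas held 0 higher and 1 lower of 8, and the single transposon-encoded row tested was not called. Among 12 liver-secreted proteins, FIBB_HUMAN, the fibrinogen beta chain, was at 754, 848 and 2170 CPM in T. bernacchii and at 0 elsewhere, at least 1630-fold higher than in C. hamatus. The summed level of tested liver markers ran from 813 to 2204 CPM in T. bernacchii, from 22.6 to 73.1 CPM in C. hamatus and from 115 to 463 CPM in G. acuticeps. FIBB_HUMAN made up most of the T. bernacchii sum: without it the other 11 rows summed to 59.3, 149 and 33.9 CPM in T. bernacchii, which overlaps both other species. The part of other tissue in these rows was not tested.

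**Figure D5:**
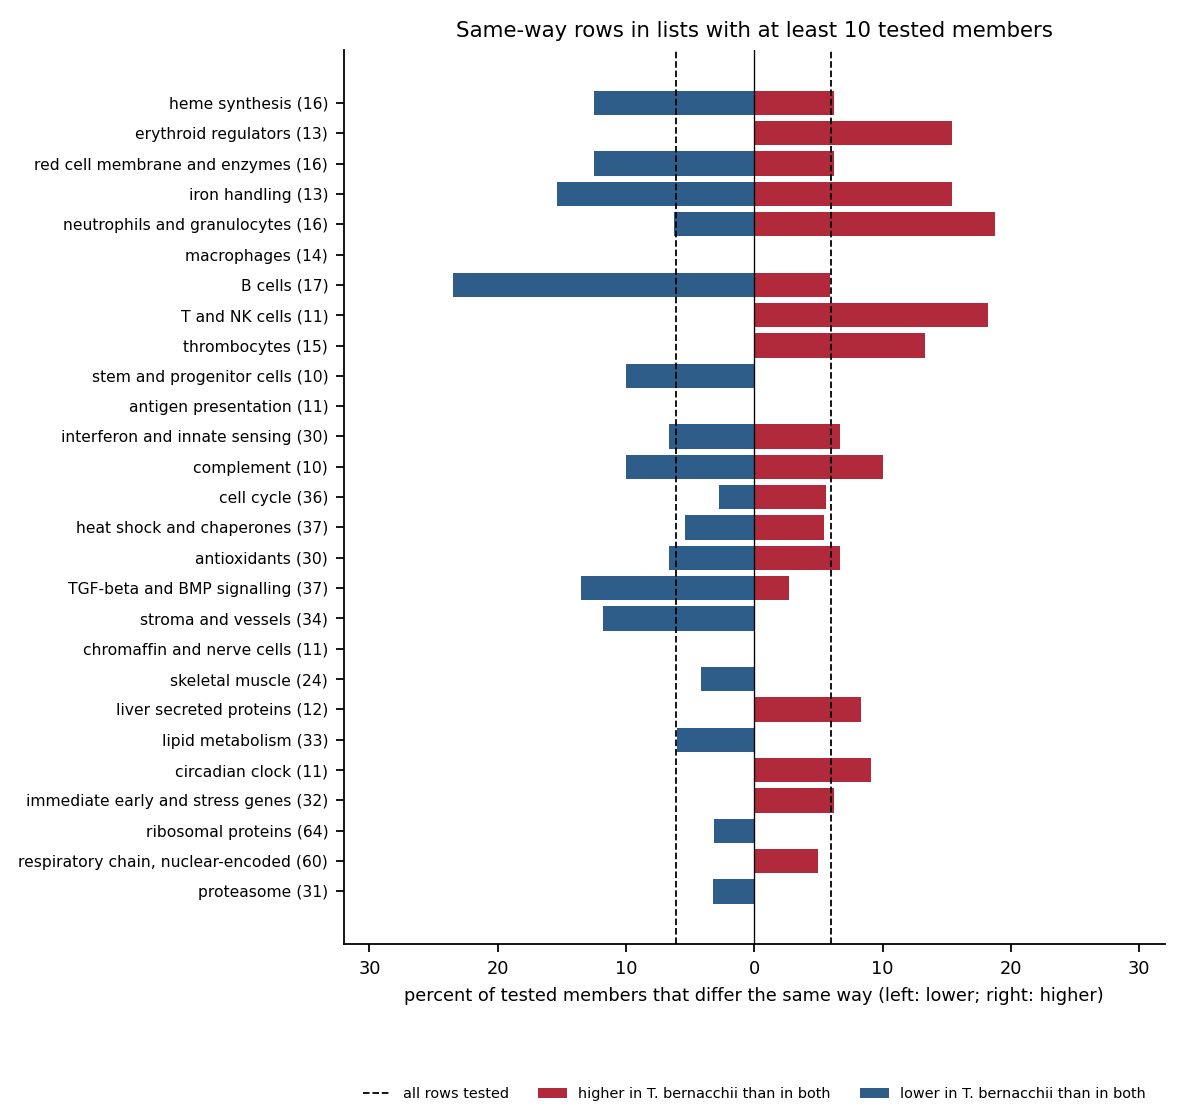
Percent of the tested members of each list that were higher (right, red) or lower (left, blue) in T. bernacchii than in both other species, for lists with at least 10 tested members, whose number stands in brackets. Dashed lines mark all rows tested, at 5.96% higher and 6.1% lower. The B cell bar reaches 23.5% on the lower side from 4 rows, and the T and NK cell bar reaches 18.2% on the higher side from 2 rows. Leaving out 1 library moved these counts to between 2 and 4 and to between 1 and 3.

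A second set of rows was named, after the values were seen, among those with at least 5 counts in every library. Higher in T. bernacchii were TPPC9_HUMAN, a subunit of a vesicle-tethering complex, at 1010, 980 and 2130 CPM against no more than 130 CPM. PR285_HUMAN, a helicase that coactivates nuclear receptors, was at 150, 126 and 91.2 CPM against no more than 6.23 CPM. AS3MT_RAT, arsenite methyltransferase, was at 311, 208 and 131 CPM against no more than 20.7 CPM, and its sum with AS3MT_MOUSE was still higher in both pairs. SYNJ1_HUMAN, RBNS5_HUMAN, ATG2A_HUMAN and CASC3_DANRE completed the higher side with log2 fold changes between 4.06 ± 0.46 and 5.39 ± 0.65. The ATG2A_HUMAN sum with ATG2B_HUMAN was not called against G. acuticeps (edgeR adjusted p of 0.0564).

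On the lower side of that set, RAB7A_RAT, a GTPase of late endosomes, was at 5.48, 31.6 and 3.78 CPM in T. bernacchii against at least 210 CPM, a log2 fold change of -4.31 ± 0.74. GRP2_HUMAN, a Ras guanine exchange factor, was at 7.23, 31.6 and 4.17 CPM against at least 93.3 CPM. ALG6_PONAB, a glucosyltransferase of protein glycosylation, was at 1.5, 2.02 and 0.582 CPM against at least 20.6 CPM. In RAB7A_RAT and GRP2_HUMAN, T. bernacchii replicate 2 was the highest of its group and still below every library of the other species. The rows CAH4_RAT, PA1B2_RAT, RABX5_MOUSE, S29A2_RAT and AN32A_DANRE were called against both species as single rows. In the sums with their relatives they were not called against both.

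Rows empty on one side were the last set. SC61G_XENLA, a subunit of the protein translocation channel, was at 0 in T. bernacchii and at 296 CPM or more in every other library, at least 613-fold lower than in C. hamatus. MUC18_HUMAN, the adhesion molecule CD146, was at 0 in T. bernacchii and at 200 CPM or more elsewhere, at least 424-fold lower than in C. hamatus. PCBP2_MOUSE, an RNA-binding protein that also carries iron, was at 0 in T. bernacchii and at 119 CPM or more elsewhere, and the sum of 4 PCBP rows was still lower at 6.48, 1.68 and 3.69 CPM. At the threshold itself, NCLN_DANRE was inside with a larger adjusted p of 0.0496 and CS012_MOUSE outside with 0.0506.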

How the data were processed

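The authors deposited read counts as whole numbers that differ in total between libraries, so they were taken as raw, from the values of the file itself. Per the labels' protocols, RNA came from frozen tissue by Trizol and went into Illumina TruSeq libraries. How reads were aligned and counted, and whether by strand, is not given in the sources used here. Rows of related proteins may share reads and are uncertain. No genome was used.

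Total counts were from 2501922 to 12055675 per library. Of the 12653 rows, 8662 passed filterByExpr. TMM scaling and a quasi-likelihood fit over all 9 libraries used edgeR 4.0.16 under R 4.3.3. Contrasts were T. bernacchii minus each species and minus their log-scale mean. Calls were made below 0.05 after Benjamini-Hochberg adjustment over all rows tested. The SE is the absolute log2 fold change over the square root of F and is approximate. CPM use TMM-scaled library sizes. Folds against a species at 0 use a floor of 3 counts per library. With 1 to 3 counts the ratio of depth-scaled counts has an exact 95% binomial interval, and floors and intervals cover counting error only. The fit was tested on simulated data.

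Named rows were the 12 highest and 12 lowest by the smaller pair change, among rows with at least 100 mean counts on the higher side, 10 in every species and a mnemonic sum also called. They were joined by 4 empty rows each way and up to 4 rows per list, with no such minimum. Rows with at least 5 counts everywhere, ACVR1_CHICK, PLCG2_HUMAN, IGHM_RABIT, TAL1_TAKRU, E2AK1_MACFA, HEM0_OPSTA and HBA2_GOBGI were chosen after their values were seen. The members and lists were chosen with earlier results of these data known. Of 33 lists 1, mitochondrially encoded proteins, held no row. Names that list patterns matched wrongly were left out. Some named rows are not reported here, though counts include them.

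Replicate numbers were not taken to pair the libraries. Alternatives were DESeq2 1.42.0, other scalings and filters, summed rows, a replicate block, separate fits of each pair, and leaving out libraries. Figures were drawn with matplotlib 3.10.9.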

Additional observations from a re-analysis of the deposited data

How the results depend on the processing

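Counts of calls moved by more than 1.5 times under few alternatives. With at least 5 counts required in every library, 4967 rows were tested and fewer rows could be called: 153 higher and 172 lower the same way, 521 and 399 against the mean, 480 and 545 against C. hamatus, and 597 and 490 against G. acuticeps. Without C. hamatus replicates 2 and 3, 850 rows were lower than in C. hamatus; that arm is then 1 library, assumed to vary like the other species' libraries, and the cause was not tested. Leaving out each library in turn gave 362 to 598 rows higher and 379 to 724 lower the same way, 1225 to 1789 and 639 to 1201 against the mean, 1013 to 1457 and 1173 to 2051 against C. hamatus, and 969 to 1773 and 825 to 1317 against G. acuticeps. The lowest count of lower rows against the mean (639) came without T. bernacchii replicate 1. The lowest count of higher rows against G. acuticeps (969) came without G. acuticeps replicate 2. DESeq2's own test called 623 rows higher and 704 lower the same way. With each pair fitted on its own 6 libraries, 516 rows were higher and 372 lower the same way. These included 456 of the higher rows (88.4%) and 355 of the lower rows (67.2%) of the main fit.

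Between species, deviations of libraries with the same replicate number from their species mean had correlations from -0.201 to 0.245. The highest was between C. hamatus replicate 2 and T. bernacchii replicate 2. With different numbers the correlations ran from -0.16 to 0.212. The numbers were taken as names, and shared handling of libraries with the same number was not tested. A fit with the replicate block gave 471 higher and 511 lower rows, of which 447 and 463 were the same as without the block.

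Of 112 named rows, 71 were called under every alternative that gave a value and 41 lost the call under 1 or more. The separate fits of each pair are not among the alternatives counted for named rows. Over 2306 alternative values, 2144 kept the call, 161 lost it and 1 changed sign against the mean. That value was NLRC3_MOUSE at 0.12 with rows of its mnemonic summed, which was called in neither pair. Scaling moved the median of all rows between 0.06 and 0.15 on the log2 scale. Leaving out 1 library moved the higher or the lower count of 20 of 33 lists by more than 1.5 times. Of all rows tested, 57.3% held at least 5 counts in every library, and a missed call in the others does not show equal levels.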
